A study of Rattus norvegicus with 15 samples.

Results

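RNA bound by the Argonaute protein Ago2 was compared with polyadenylated RNA from the same kind of cells, islet cells given a mimic of the microRNA miR-17-5p. The 9 libraries of these cells were taken out of the 15 of the series by their titles: 4 RISC libraries, replicates 2, 4, 5 and 6, made from RNA recovered with a monoclonal antibody against Ago2, and 5 mRNA libraries, replicates 1, 2, 4, 5 and 6, made from RNA selected with oligo(dT). The cells were islets of Langerhans of Sprague-Dawley rats aged 10 days, dispersed and transfected, and all 9 libraries carry the miR-17-5p mimic, so this comparison sets 2 kinds of library side by side and not treated against untreated cells. The other 6 libraries came from islet cells of the same strain and age given a control mimic, with 3 of each kind, and were used for the comparison at the end. The labels state poly(A) selection for mRNA libraries and none for RISC libraries. The immunoprecipitation and the way the libraries were prepared therefore differed together and cannot be told apart, and no immunoprecipitate with another antibody was analysed here. Numbers in titles and descriptions of the same library differ, and p-values rest on how far the libraries of a group spread, which can be technical only.

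MicroRNAs guide Argonaute proteins to messenger RNAs, mostly by pairing of the seed, bases 2 to 8 of the microRNA, with sites in the target. Argonaute recruits the TNRC6 scaffold proteins, which in turn bring deadenylation and decapping enzymes, and the complex is called the RNA-induced silencing complex, or RISC. In an Ago2 immunoprecipitate a transcript can be high relative to the mRNA library when more of it is held by Ago2 for its amount. It can also be high when it is carried along in another way, or when poly(A) selection left it out of the mRNA library. These cannot be told apart here, so a gene called higher in RISC below is not thereby shown to be held by Ago2. The miR-17 family is known for targets in cell cycle control and in transforming growth factor beta signalling, and miR-375 and miR-7 are microRNAs typical of endocrine islet cells.

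The sequences of the transfected microRNA and of 4 family members are given first, because they share a seed and the listed targets below are targets of the family and not of 1 member. Mature rat sequences are from RefSeq (build GRCr8), written 5′ to 3′ with the seed in capitals. The gene of miR-17-5p lies on chromosome 15 and its mature sequence covers bases 98587861 to 98587883 of the plus strand.
rno-miR-17-5p: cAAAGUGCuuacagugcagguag
rno-miR-20a-5p: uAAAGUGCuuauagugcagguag
rno-miR-20b-5p: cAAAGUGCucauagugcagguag
rno-miR-93-5p: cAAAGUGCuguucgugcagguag
rno-miR-106b-5p: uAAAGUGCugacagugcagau
Targets of 5 other groups of microRNAs, which no mimic added, were listed beside them. Their seeds differ from that of miR-17 and from one another in these members, which are shown so that the groups can be told apart.
rno-let-7b-5p: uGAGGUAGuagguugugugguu
rno-miR-375-3p: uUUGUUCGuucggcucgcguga
rno-miR-7a-5p: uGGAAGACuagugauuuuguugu
rno-miR-29a-3p: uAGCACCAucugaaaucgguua
rno-miR-200c-3p: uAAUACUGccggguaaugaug
rno-miR-141-3p: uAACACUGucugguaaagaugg

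The 2 kinds of library had different contents. Insulin transcripts, Ins1 and Ins2, took 32.5% ± 6.02 (SD, n = 5) of the gene counts in mRNA libraries and 1.19% ± 0.240 (n = 4) in RISC libraries. The precursor of ribosomal RNA, Rn45s, whose mature products are not polyadenylated, took 7.68% ± 3.28 in mRNA and 31.2% ± 7.62 in RISC libraries, with 42.6% in RISC replicate 6 and 26.6% to 28.2% in the other 3. After thinning every library to 5870265 counts, 12084 ± 642 genes were detected in mRNA and 9914 ± 746 in RISC libraries. For these 3 measures the groups did not overlap, and the exact two-sided permutation test over libraries gave p = 0.0159, the smallest value that 4 against 5 libraries allow (adjusted p = 0.0212 over 4 measures). The share of the 100 highest genes of each library was 55.2% ± 4.12 in mRNA and 48.9% ± 6.32 in RISC libraries and did not pass the test (exact permutation p = 0.111), although without RISC replicate 6, where the share was 58.3%, the exact permutation p was 0.0357. Totals were 5870265 to 21056240 counts for mRNA and 7819020 to 12733872 for RISC libraries, so 3 counts corresponded to 0.173 to 0.536 CPM (counts per 1000000, TMM-scaled) in mRNA and 0.206 to 0.416 CPM in RISC libraries. Log2 CPM of all genes tested correlated at 0.864 to 0.980 between mRNA libraries, 0.756 to 0.864 between RISC libraries and 0.574 to 0.722 between the kinds, values across genes that are not independent.

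**Figure D1:**
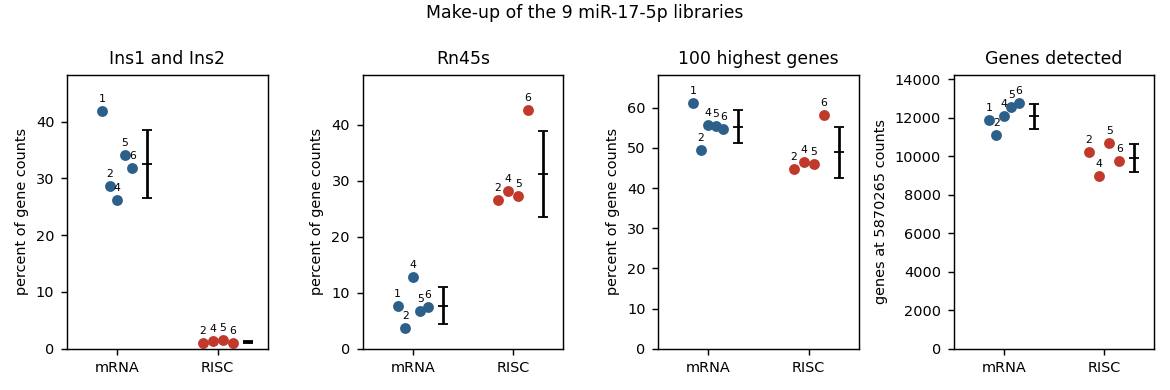
Share of gene counts on the insulin genes, on Rn45s and on the 100 highest genes of each library, in percent, and genes detected after thinning to 5870265 counts, for each miR-17-5p library (points, numbered by replicate). Bars give mean ± SD of 5 mRNA (blue) and 4 RISC (red) libraries; insulin counts are 26.2% to 41.8% in mRNA and 0.947% to 1.47% in RISC libraries.

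Of 10871 genes tested with edgeR, 2361 (21.7%) were higher and 2366 (21.8%) lower in RISC than in mRNA libraries at an adjusted p under 0.05, and these 2 shares are the background for the counts below. The median log2 fold change of all genes was -0.14, with quartiles of -1.33 and 0.80. Groups did not overlap for 2072 genes (19.1%) with RISC higher and 2793 (25.7%) with RISC lower. When the same contrast was taken from a fit of all 15 libraries, in which the control RISC libraries add to the spread, 1084 genes were higher and 1375 lower, and counts of that fit are given beside a list where they differ from the main count by more than 1.5 times. A scaling by total counts moved the median of all genes by 0.18 and the share of higher genes among those called from 49.9% to 57.0%, so values near 0 depend on the scaling.

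Transcripts of cytosolic ribosomal proteins were the largest group on the low side. Of 78 in the table, 70 were tested, 68 were lower in RISC, none was higher, and their median log2 fold change was -3.996 against -0.14 for all genes. Rpl22l1 and Rps4y2, named after their values were seen, were not called, at -0.36 and -2.61; without RISC replicate 5, the only RISC library with a count of Rpl22l1, it was called at -7.11, which is no measured fold, and without RISC replicate 2 Rps4y2 was called at -4.52. Ribosomal proteins build the subunits of the cytosolic ribosome and their transcripts are short and abundant. Of the 12 lower genes with the smallest p, 9 encode ribosomal proteins. Rpl27a, of the large subunit, was at 737, 982, 830, 682 and 681 CPM in mRNA libraries 1, 2, 4, 5 and 6 and at 23.9, 26.4, 26.2 and 28.1 CPM in RISC libraries 2, 4, 5 and 6, a log2 fold change of -4.90 ± 0.18 (SE; adjusted p = 2.97e-08) or 30.0-fold. The 4 RISC values lie close together and far from every mRNA value. Rps27a, which encodes a fusion of ubiquitin with a small subunit protein, was at 270 to 345 CPM in mRNA and 11.7 to 15.2 CPM in RISC libraries, a log2 fold change of -4.51 ± 0.16 (adjusted p = 2.97e-08). Rps12, of the small subunit, was at 668 to 804 CPM in mRNA and 12.1, 14.6, 5.87 and 10.4 CPM in RISC libraries, a log2 fold change of -6.11 ± 0.27. Rplp1, a protein of the ribosomal stalk, differed by -5.63 ± 0.23, Rps27 by -5.82 ± 0.27, Rpl37 by -5.72 ± 0.25 and Rpl24 by -4.23 ± 0.19, all without overlap between the groups. Near-identical pseudogene copies make single values of ribosomal protein genes uncertain.

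Many ribosomal protein transcripts begin with a run of pyrimidines, known as the 5′ terminal oligopyrimidine stretch, and windows around the annotated starts are shown for 3 of the genes above because the members move together. Windows run from 10 bases before to 20 bases from the RefSeq start (build GRCr8), with CTTTTC and CTTTCC in capitals.
Rpl27a: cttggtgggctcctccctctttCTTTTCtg
Rps27: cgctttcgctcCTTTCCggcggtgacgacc
Rps27a: agggcggttccttcgacccggagactcggt
Rpl27a lies at chr1:172974563-172974592 on the plus strand, Rps27 at chr2:177964587-177964616 and Rps27a at chr14:107488922-107488951, both on the minus strand. CTTTTC or CTTTCC, on either strand, occurred in 23 of 56 ribosomal protein windows (41.1%) and in 314 of 8081 windows of all genes tested that had one (3.89%). Among genes called lower the share was 4.63% (83 of 1792 windows) and among genes called higher 4.40%. The genes called lower include 68 of the 70 ribosomal protein genes tested, so the share among the other lower genes was smaller than 4.63%. Of 4 strings searched in all, CTCTTTC occurred in 17.9% and CTTCCT in 16.1% of ribosomal protein windows, against 0.57% and 3.75% of all. CTCTTTC can overlap either of the capitalised strings, and in the Rpl27a window it ends on the first base of the capitalised CTTTTC. A match describes the letters in the window only.

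Nuclear genes for mitochondrial and protein turnover machines lay on the same side. Of 75 listed subunits of the respiratory chain and ATP synthase, 72 were tested and 64 were lower, none higher, with a median log2 fold change of -3.03. Ndufa6, a subunit of complex I, was at 77.9, 82.8, 65.2, 80.0 and 57.9 CPM in mRNA and 4.80, 6.84, 4.02 and 2.63 CPM in RISC libraries, a log2 fold change of -3.98 ± 0.30 (adjusted p = 1.89e-06). Atp5g2, of the ATP synthase ring, fell from 182 to 242 CPM in mRNA to 21.1 to 42.6 CPM in RISC libraries, by 2.77 ± 0.21 on the log2 scale. Atp5h and Ndufb10 differed by -3.02 ± 0.24 and -2.80 ± 0.24. Mitochondrial ribosomal proteins had 37 of 63 tested lower and none higher, with a median of -2.25, and 14 lower in the 15-library fit. Mrpl52, Mrpl12 and Mrpl4 differed by -2.93 ± 0.35, -2.81 ± 0.34 and -2.04 ± 0.27, and each lost its call in the 15-library fit. Mrpl50 was at 6.18 to 11.97 CPM in mRNA and at 0 counts in all 4 RISC libraries, at least 32.8-fold lower when each RISC library is set to 3 counts. Proteasome subunits had 27 of 39 lower and none higher, with a median of -1.56 and 11 lower in the 15-library fit. Psma7, of the catalytic core, was at 129 to 193 CPM in mRNA and 2.67, 2.19, 9.68 and 10.8 CPM in RISC libraries, a log2 fold change of -4.70 ± 0.48 (adjusted p = 1.48e-05). Psmb7 differed by -2.40 ± 0.19, Psmd9 by -3.08 ± 0.38 and Psmc5 by -1.65 ± 0.20, and calls of Psmb7 and Psmc5 were lost in the 15-library fit.

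Other genes with the smallest p on the low side encode proteins of membranes and translation. Cd63, a tetraspanin of late endosomes and secretory vesicles, was at 546, 541, 538, 500 and 483 CPM in mRNA and 30.2, 43.1, 43.3 and 34.8 CPM in RISC libraries, a log2 fold change of -3.79 ± 0.16 (adjusted p = 1.05e-07). Atp6v0c, a subunit of the vacuolar proton pump, differed by -3.21 ± 0.15, and the translation factor Eif5a by -3.37 ± 0.16. Proteins that bring secretory proteins into the endoplasmic reticulum or fold them there gave a split list, with 14 of 29 lower, 4 higher and a median of -0.54 (2 higher and 9 lower in the 15-library fit). Sec61b, a small subunit of the translocation channel, was at 130 to 192 CPM in mRNA and 3.02, 1.05, 5.87 and 6.51 CPM in RISC libraries, a log2 fold change of -5.35 ± 0.44 (adjusted p = 3.54e-06). Ssr4 and Ssr2, subunits of the translocon-associated complex, differed by -4.40 ± 0.25 and -3.64 ± 0.24. Sec63, which works at the same channel, was on the other side, at 126 to 140 CPM in mRNA and 333 to 443 CPM in RISC libraries, a log2 fold change of 1.49 ± 0.13 (adjusted p = 3.82e-06). Members of 1 molecular machine had values on both sides of 0.

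**Figure D2:**
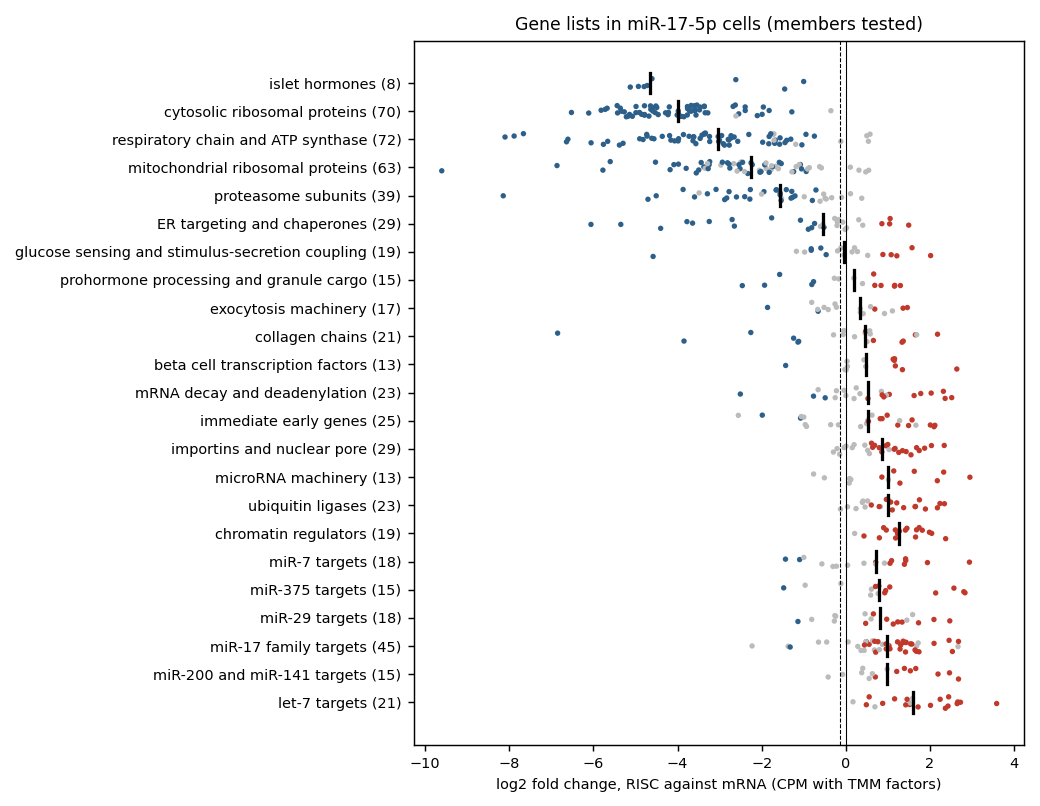
Log2 fold change of RISC against mRNA in miR-17-5p cells for every tested member of 23 gene lists (points; red, called higher; blue, called lower; grey, not called), with each list's median as a black bar, the median of all genes dashed and 0 as a solid line. Hormones, ribosomal, respiratory and proteasome genes have medians between -4.67 and -1.56, and the 6 lists of microRNA targets have medians between 0.71 and 1.59.

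All 8 islet hormone genes were lower in RISC libraries, with a median of -4.67. Ins1 was at 296975, 166738, 174712, 192997 and 189671 CPM in mRNA libraries 1, 2, 4, 5 and 6 and at 5132, 5982, 6869 and 5447 CPM in RISC libraries 2, 4, 5 and 6, a log2 fold change of -5.12 ± 0.28 (adjusted p = 2.97e-07) or 34.9-fold. Ins2 differed by -4.79 ± 0.32, and reads of the 2 near-identical insulin genes may be split between them. Hormones of the rarer islet cells, somatostatin (Sst) of delta cells and pancreatic polypeptide (Ppy), differed to a like degree, by -4.61 ± 0.44 and -4.72 ± 0.43. Sst was at 489 to 960 CPM in mRNA and 16.3, 42.7, 42.5 and 11.8 CPM in RISC libraries. Glucagon (Gcg), of alpha cells, differed less in these values, at 9293 to 12015 CPM in mRNA and 2479, 2943, 3426 and 6014 CPM in RISC libraries, a log2 fold change of -1.45 ± 0.25 (adjusted p = 6.78e-04), while amylin (Iapp), which beta cells release with insulin, differed by -2.62 ± 0.44. The groups did not overlap for any of the 8 hormones, and differences between hormones were not tested.

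Transcription factors of beta cells did not follow the hormones. Of 13 tested, 6 were higher and 1 was lower, with a median of 0.47. Neurod1, a basic helix-loop-helix factor needed for islet development and insulin gene transcription, was at 328, 140, 180, 255 and 220 CPM in mRNA and at 1522, 1373, 1413 and 1288 CPM in RISC libraries, a log2 fold change of 2.64 ± 0.22 (adjusted p = 4.16e-06) or 6.22-fold. Isl1 and St18 were higher by 1.16 ± 0.22 and 1.13 ± 0.20, and all their RISC values lay above the mRNA values. Pdx1, a homeobox factor of the same cells that binds the insulin promoter, was the member that was lower, at 85.5 to 146 CPM in mRNA and 39.2, 28.9, 50.8 and 50.9 CPM in RISC libraries, a log2 fold change of -1.43 ± 0.22 (adjusted p = 2.98e-04) that was not called in the 15-library fit. The other 6 factors were not called and had log2 fold changes between -0.02 and 0.47.

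Genes of glucose sensing and secretion were spread over both sides. For glucose sensing and stimulus-secretion coupling 5 of 19 were higher and 5 lower (3 and 3 in the 15-library fit), with a median of -0.04 that turned positive under scaling by total counts. Gipr, the receptor for the incretin GIP, was at 191 to 288 CPM in mRNA and at 14.1, 0, 15.8 and 9.70 CPM in RISC libraries, a log2 fold change of -4.58 ± 0.76 (adjusted p = 4.87e-04). Kcnma1, a calcium-activated potassium channel, was higher by 2.02 ± 0.30, with 217 CPM in RISC library 5 and 77.8 to 125 CPM in the other 3, and Cacna1c, a voltage-gated calcium channel, by 1.08 ± 0.20. Gpd2, of the glycerol phosphate shuttle, was higher by 1.57 ± 0.27. Of 15 prohormone processing and granule genes 6 were higher and 5 lower (3 lower in the 15-library fit). The protease Pcsk1, which cuts proinsulin, was at 239 to 468 CPM in mRNA and 514, 525, 1134 and 938 CPM in RISC libraries (1.30 ± 0.27), whereas Scg5, the chaperone of the related protease Pcsk2, was at 261 to 584 and 47.5 to 95.8 CPM (-2.46 ± 0.28). Chga, a granin of the granule core, was lower by 1.57 ± 0.23 on the log2 scale, a second granin, Chgb, was not called at 0.19 ± 0.13, and Rab27a, a GTPase of granule docking, was higher by 1.16 ± 0.22. For exocytosis proteins 3 of 17 were higher and 2 lower (1 and none in the 15-library fit), and the 2 lower calls, Napa at -1.86 ± 0.33 and Vamp2 at -0.66 ± 0.15, were lost in the 15-library fit. Nsf, the ATPase that recycles SNARE proteins together with the Napa product, was higher by 1.36 ± 0.18, and Exoc5 of the exocyst by 1.46 ± 0.29, with the latter call lost in that fit. The third, Rims2, a scaffold of the release site, was higher by 0.69 ± 0.25 and lost its call there, with 2 of 3 other scalings and without 8 of the 9 libraries in turn (0.50 to 0.73).

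**Figure D3:**
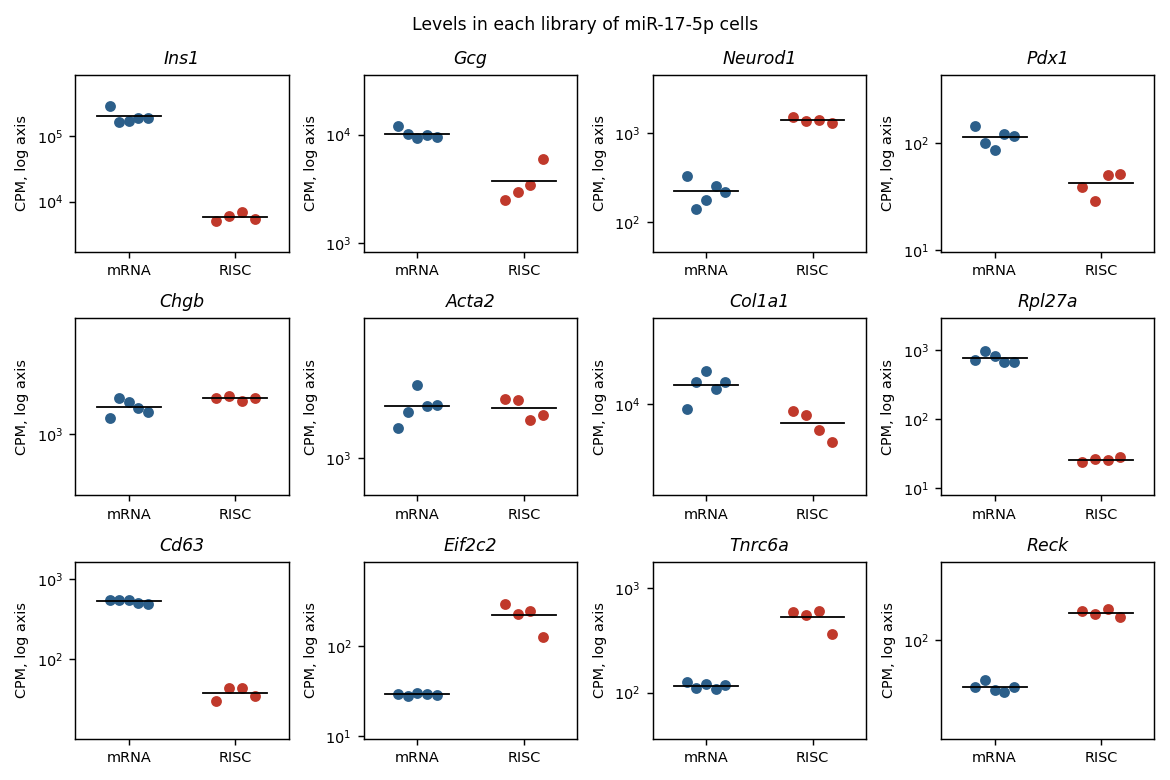
CPM of 12 genes (log axes) in each mRNA (blue, 5) and RISC (red, 4) library of miR-17-5p cells, with the group mean as a line; points run in order of replicate. Ins1, Gcg, Pdx1, Col1a1, Rpl27a and Cd63 are lower and Neurod1, Eif2c2, Tnrc6a and Reck higher in every RISC library than in every mRNA library, and the groups overlap for Chgb and Acta2.

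The 12 genes with the smallest p on the high side encode, among others, signalling, ubiquitin ligase, RNA-binding and DNA-binding proteins. Reck, a membrane-anchored inhibitor of matrix metalloproteinases, was at 33.7, 39.7, 31.7, 30.4 and 33.5 CPM in mRNA libraries 1, 2, 4, 5 and 6 and at 199, 183, 209 and 171 CPM in RISC libraries 2, 4, 5 and 6, a log2 fold change of 2.50 ± 0.14 (adjusted p = 3.68e-07) or 5.64-fold. Rnf111, a ubiquitin ligase that acts on inhibitors of SMAD signalling, rose from 28.5 to 43.7 CPM in mRNA to 230 to 322 CPM in RISC libraries, by 2.90 ± 0.17. The kinase Hipk3 differed by 2.80 ± 0.17, Errfi1, a feedback inhibitor of the EGF receptor, by 2.16 ± 0.13, and Chac1, an enzyme of glutathione breakdown, by 2.65 ± 0.16. Cbll1, a ubiquitin ligase found with the N6-methyladenosine writer complex, was at 12.1 to 17.7 CPM in mRNA and at 103, 105, 104 and 106 CPM in RISC libraries, a log2 fold change of 2.76 ± 0.18 (adjusted p = 6.72e-07). Its 4 RISC values were almost equal. Ythdf3, a reader of the same RNA mark, differed by 2.39 ± 0.16. Arid5b, Zfp280b, Sbno1, Fem1b and Fndc3b differed by 2.36 ± 0.14, 2.92 ± 0.18, 2.05 ± 0.13, 2.62 ± 0.17 and 2.18 ± 0.15. For each of the 12 every RISC value lay above every mRNA value.

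Transcripts for the silencing machinery itself were among those higher in RISC. Of 13 tested members of the microRNA machinery 7 were higher and none lower, with a median of 1.01. The transcript of Ago2, listed under its older symbol Eif2c2, was at 29.0, 27.9, 30.0, 29.7 and 28.9 CPM in mRNA and at 295, 228, 246 and 128 CPM in RISC libraries, a log2 fold change of 2.95 ± 0.21 (adjusted p = 1.67e-06) or 7.72-fold. The mRNA values were nearly equal and RISC library 6 was the lowest of its group. Tnrc6a and Tnrc6b, the scaffold proteins that Argonaute binds, were higher by 2.17 ± 0.16 and 2.33 ± 0.24, and Eif2c1, which encodes Ago1, by 1.29 ± 0.26. Of 23 genes of deadenylation, decapping and decay 10 were higher and 3 lower, with a median of 0.53. Ddx6, a helicase of P-bodies, was at 60.0 to 82.6 CPM in mRNA and 257, 238, 277 and 165 CPM in RISC libraries (1.78 ± 0.17, adjusted p = 1.03e-05). Patl1 and Dcp1a, which take part in decapping, were higher by 2.03 ± 0.18 and 2.32 ± 0.25, and Cnot1, the scaffold of the main deadenylase, by 1.03 ± 0.13.

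Lists of chromatin, ubiquitin and nuclear transport genes had medians above 0. Of 19 chromatin regulators 18 were higher, none was lower, and the median was 1.27; Chd8 was not called, at 0.21. Crebbp, a histone acetyltransferase, was at 74.4 to 128 CPM in mRNA and 687, 511, 693 and 364 CPM in RISC libraries, a log2 fold change of 2.37 ± 0.22 (adjusted p = 8.47e-06). Arid1a, a subunit of the SWI/SNF remodelling complex, differed by 1.74 ± 0.14, and the chromatin remodelling and reader proteins Chd1 and Baz2b by 1.99 ± 0.18 and 1.82 ± 0.15. Ubiquitin ligases had 15 of 23 higher and none lower, with a median of 1.00. Mib1, which ubiquitinates Notch ligands, was at 42.3 to 68.4 CPM in mRNA and 218 to 321 CPM in RISC libraries (2.34 ± 0.18), and Trip12, Smurf2 and Cblb differed by 1.89 ± 0.17, 1.75 ± 0.18 and 2.18 ± 0.23. Importins and nuclear pore proteins had 18 of 29 higher and none lower, with a median of 0.85 (9 higher in the 15-library fit). The import receptor Tnpo1 was at 87.0 to 93.2 CPM in mRNA and 463, 574, 452 and 323 CPM in RISC libraries, a log2 fold change of 2.34 ± 0.16 (adjusted p = 1.26e-06). Xpo4, Kpna6 and Kpnb1 differed by 2.03 ± 0.25, 1.74 ± 0.21 and 1.15 ± 0.12. Zinc finger genes, listed by their symbols, went both ways, with 53 of 198 tested higher, 20 lower and a median of 0.41 (27 higher and 9 lower in the 15-library fit). Most are transcription factors, but the list also holds other proteins such as Zfp36, which promotes deadenylation. Zbtb43, Zfp281 and Zfp652 were higher by 2.99 ± 0.22, 2.67 ± 0.21 and 2.75 ± 0.23.

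Listed targets of the miR-17 family, the seed shared by the first 5 sequences above, were mostly on the high side. Of 46 with an entry, 45 were tested, 27 were higher, 1 was lower, and the median log2 fold change was 0.98 against -0.14 for all genes; 15 were higher and 2 lower in the 15-library fit. Map3k2, a kinase of the MAP kinase pathway, was at 10.6, 11.5, 10.2, 11.8 and 17.9 CPM in mRNA and at 97.5, 48.2, 82.7 and 89.4 CPM in RISC libraries, a log2 fold change of 2.68 ± 0.26 (adjusted p = 1.13e-05). Lats2, a kinase of the Hippo pathway that restrains YAP, was at 36.5 to 64.4 CPM in mRNA and 138 to 189 CPM in RISC libraries (1.67 ± 0.18), and Ankfy1, an endosomal protein, at 64.7 to 104 and 209 to 341 CPM (1.74 ± 0.19). The cell cycle inhibitor Cdkn1a was at 32.4 to 63.8 CPM in mRNA and 123, 102, 128 and 70.0 CPM in RISC libraries, a log2 fold change of 1.29 ± 0.25 (adjusted p = 0.00143). Crim1 differed by 1.23 ± 0.15 and Tgfbr2, the type II receptor for transforming growth factor beta, by 1.42 ± 0.44, and these 2 calls were lost in the 15-library fit. Sqstm1, an autophagy receptor, was the member that was lower, at 386 to 504 CPM in mRNA and 122 to 226 CPM in RISC libraries (-1.32 ± 0.19).

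Other well known targets of the family were not called in the main fit. Bcl2l11, a death-promoting protein of the BCL2 family, was at 1.28 to 5.57 CPM in mRNA and at 13.6, 53.0, 13.1 and 0 CPM in RISC libraries (2.67 ± 1.07, adjusted p = 0.0627), and without RISC replicate 6 it was called, at 3.08. Bcl2l11 was also called higher with DESeq2 (2.58, adjusted p = 0.0284) and with edgeR on total counts (2.92, adjusted p = 0.0448). E2f1, a transcription factor of the cell cycle, was at 6.43 to 18.4 CPM in mRNA and at 0, 6.05, 1.85 and 1.25 CPM in RISC libraries (-2.23 ± 1.05, adjusted p = 0.110), lower in all 4 RISC libraries, and without RISC replicate 4 it was called, at -3.41. E2f1 was also called lower with DESeq2 (-2.32, adjusted p = 0.0322) and with limma-voom (-3.76, adjusted p = 0.0214). Arid4b was not tested: it was at 0 in all 5 mRNA libraries and at 38, 50, 14 and 0 counts in RISC libraries 2, 4, 5 and 6, at least 5.60-fold higher with each mRNA library set to 3 counts.

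**Figure D4:**
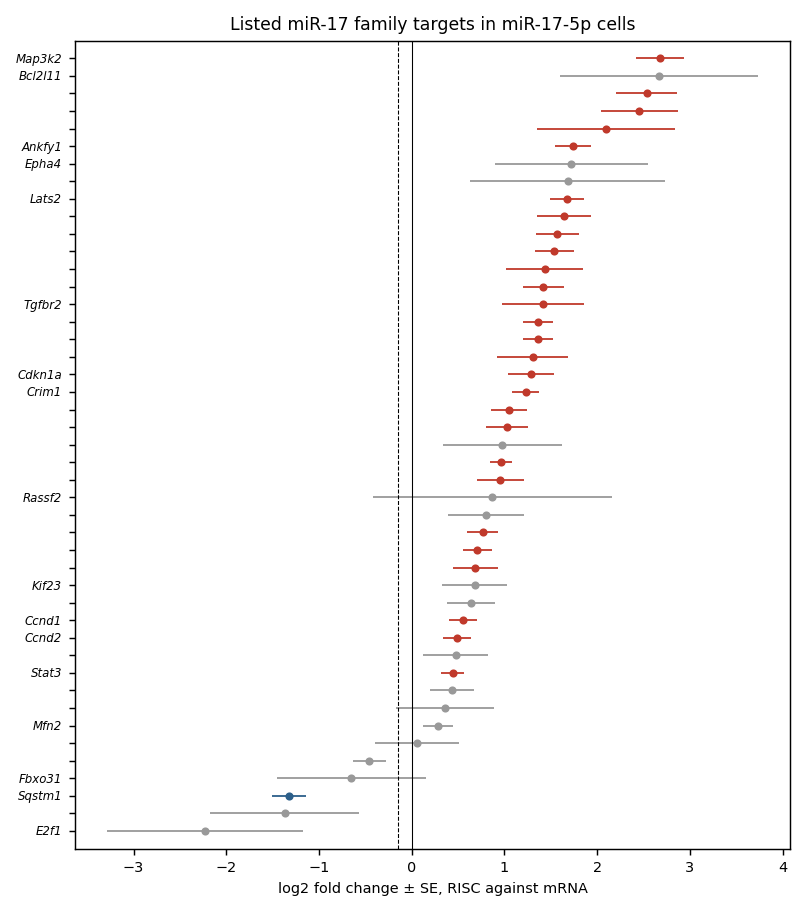
Log2 fold change of RISC against mRNA ± SE for the 45 tested targets listed for the miR-17 family (red, called higher; blue, called lower; grey, not called; dashed, median of all genes; solid, 0; genes described in the text are labelled). Map3k2 at 2.68 and Sqstm1 at -1.32 are the outermost called members, and the widest bars belong to genes with few counts.

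Lists for microRNAs that the mimic did not add had medians of the same order. For let-7, 17 of 21 tested targets were higher, none was lower and the median was 1.59 (11 in the 15-library fit). Arid3a, a DNA-binding protein, was at 20.4 to 24.1 CPM in mRNA and 193, 141, 114 and 129 CPM in RISC libraries, a log2 fold change of 2.72 ± 0.18 (adjusted p = 9.24e-07). Igf1r, the receptor for insulin-like growth factor, was at 78.2 to 91.5 CPM in mRNA and 333 to 543 CPM in RISC libraries (2.24 ± 0.16), and Igf2bp1, an RNA-binding protein of fetal tissue, and the receptor Tgfbr1 differed by 2.66 ± 0.24 and 2.01 ± 0.16. For miR-375, 9 of 15 were higher and 1 lower, with a median of 0.78 (5 higher in the 15-library fit). Elavl4, a neuronal RNA-binding protein also made in beta cells, was at 18.04 to 30.5 CPM in mRNA and 109, 203, 144 and 90.1 CPM in RISC libraries (2.57 ± 0.26, adjusted p = 1.46e-05), and Rasd1, a Ras-like GTPase, was higher by 2.83 ± 0.29. For miR-7, 8 of 18 were higher and 2 lower, with a median of 0.71 (3 higher and none lower in the 15-library fit); Irs1, which relays insulin receptor signals, was at 20.5 to 42.5 CPM in mRNA and 204 to 304 CPM in RISC libraries (2.94 ± 0.22). For miR-29, 9 of 18 were higher and 1 lower, with a median of 0.81 (5 higher in that fit), and the DNA methyltransferase Dnmt3a differed by 2.09 ± 0.24. For miR-200 and miR-141, 8 of 15 were higher and none lower, with a median of 0.98 (5 higher in that fit), and Zeb2, a repressor of epithelial genes, differed by 2.46 ± 0.35. The lists share members, among them Ccnd1 and Ccnd2, and differences between the target lists were not tested.

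Short-lived and inducible transcripts were mixed. Of 25 immediate early genes 10 were higher and 2 lower, with a median of 0.54 (5 higher and 1 lower in the 15-library fit). Dusp1, a phosphatase that ends MAP kinase signals, was at 33.5 to 54.7 CPM in mRNA and 205, 220, 148 and 144 CPM in RISC libraries (2.01 ± 0.20, adjusted p = 1.13e-05), and Btg2 and Zfp36, which both promote deadenylation, differed by 1.57 ± 0.21 and 1.49 ± 0.20. Jund, of the AP-1 complex, was lower, at 68.6 to 111 CPM in mRNA and 13.8 to 38.0 CPM in RISC libraries (-1.99 ± 0.32). Of 22 interferon-stimulated genes 6 were higher and 5 lower, and in the 15-library fit 1 was higher and none lower. Ifih1, a sensor of double-stranded RNA, differed by 1.89 ± 0.25. Replication-dependent histones, whose mRNAs end in a stem-loop and not in poly(A), had 3 of 13 tested members higher and none lower, with a median of 0.93. The count of higher members is near the 21.7% of all genes, and 5 of the 13 had log2 fold changes below 0. A part of the missing poly(A) in these values was not tested. Hist1h1d, a linker histone, was at 2.08, 0.248, 7.50, 1.79 and 4.08 CPM in mRNA and 27.4, 18.9, 19.3 and 31.5 CPM in RISC libraries (2.96 ± 0.70, adjusted p = 0.00509).

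Of 383 small noncoding RNA genes in the table none passed the filter, 52 had any count, and their counts summed to 0 to 21 per RISC library and 17 to 80 per mRNA library, so microRNAs themselves were not measured in these libraries. Among 5 long noncoding and structural RNAs tested, 2 were higher and 2 lower. H19, an imprinted noncoding RNA, was at 24.5, 524, 128, 63.6 and 96.5 CPM in mRNA and 1038, 1108, 693 and 1110 CPM in RISC libraries (2.56 ± 0.68, adjusted p = 0.00947), with mRNA library 2 well above the other 4. Rn45s was higher by 1.85 ± 0.36. Gas5 and Snhg11, noncoding transcripts of spliced genes, were lower, Gas5 at 58.4 to 86.9 CPM in mRNA and 0, 4.82, 3.81 and 0 CPM in RISC libraries (-5.02 ± 0.93) and Snhg11 by -4.59 ± 0.62. Counts were not strand-specific, so an overlapping gene on the other strand can add to any of these values.

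Some abundant transcripts had values near 0. By the rule of the highest mean level within 0.25 of 0 on the log2 scale, these were Acta2 and Actg1, both actins, Sparc, a matrix protein, Flna, which cross-links actin, Chgb and Hspa5, a chaperone of the endoplasmic reticulum. Chgb was at 1255 to 1658 CPM in mRNA and 1666, 1720, 1600 and 1660 CPM in RISC libraries (0.19, with a 95% interval of -0.12 to 0.50). The intervals of Acta2 (-0.05) and Actg1 (-0.02) ran from -0.54 to 0.44 and from -0.38 to 0.33. Sparc at -0.24, Flna at 0.22 and Hspa5 at -0.02 had intervals of -0.78 to 0.30, -0.24 to 0.68 and -0.69 to 0.65, so fold changes under 2-fold in either direction were compatible with these libraries.

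At the other end, 1876 genes had counts in an mRNA library and 0 in all 4 RISC libraries, and 165 of them passed the filter, through their mRNA counts alone. All 165 were called lower, the only direction open to them. The 4 with the highest mRNA level were Rgs11, a regulator of G protein signalling, Chchd1, a mitochondrial ribosomal subunit, Gtf2h5, a small subunit of transcription factor TFIIH, and Myh6, a cardiac myosin heavy chain. Rgs11 had 1086, 526, 321, 316 and 423 counts in mRNA libraries 1, 2, 4, 5 and 6, or 45.4 to 65.1 CPM, and was at least 188-fold lower with each RISC library set to 3 counts. Chchd1, at 22.6 to 34.1 CPM, was at least 96.8-fold lower and Gtf2h5, at 15.9 to 35.8 CPM, at least 76.6-fold lower. Myh6 ranged from 1.61 to 67.5 CPM among mRNA libraries, at least 75.2-fold lower by its mean, and was not called with limma-voom (-6.10). In the other direction 36 genes had counts only in RISC libraries, 33 of them in 1 library and none in all 4. Cdh19, a cadherin of Schwann cell precursors, had 39 and 56 counts in RISC libraries 4 and 5, Dmrt1 had 82 counts in library 2 alone and Ptprq had 55 in library 4 alone, and all 3 were at 0 in the other libraries.

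Markers of other cell types in the preparation were followed because shares of cells and contents of RNA per cell cannot be told apart in bulk libraries. Beta cell markers summed to 273085 to 511499 CPM in mRNA and 9904 to 15220 CPM in RISC libraries, and 4 of 7 tested were lower and none higher. These sums include the insulin genes, with Ins1 alone at 166738 to 296975 CPM in mRNA libraries. The 3 markers not called had log2 fold changes between 0.04 and 0.28. Without counts of Rn45s and the insulin genes, 2 of 5 were lower and the median was 0.084. The markers of alpha, delta and PP cells summed to 10766 to 13787 and 2715 to 6239 CPM, with 4 of 9 lower and 1 higher, Irx2 (1.51 ± 0.30, a call lost in the 15-library fit). Stellate and fibroblast markers summed to 20647 to 45512 CPM in mRNA and 26686 to 28053 CPM in RISC libraries and were mixed, with 5 of 15 tested lower and 3 higher (3 lower and none higher in the 15-library fit); Col1a2 was at 0 in every library and Rgs5 in all RISC libraries. Col1a1 was at 8947 to 19891 CPM in mRNA and 8618, 8022, 5838 and 4528 CPM in RISC libraries (-1.14 ± 0.26, adjusted p = 0.00440), Tagln and Vim differed by -1.60 ± 0.18 and -1.51 ± 0.21, and Thy1 and Des differed by -2.03 ± 0.23 and -1.72 ± 0.31 with calls lost in the 15-library fit. The 3 that were higher, Pdgfra, a growth factor receptor, and the matrix genes Postn and Col5a1, differed by 1.29 ± 0.35, 0.73 ± 0.26 and 0.66 ± 0.18, all with calls lost there; Postn also lost its call without 4 of the 9 libraries in turn (0.64 to 0.74). Collagen chains as a list had 6 of 21 higher and 6 lower (3 higher in the 15-library fit), from Col27a1 at -2.26 ± 0.27 and Col16a1 at -1.12 ± 0.20 to Col11a1 at 1.65 ± 0.24 and Col5a2 at 1.34 ± 0.22.

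Endothelial markers, with 2 of 11 higher (Flt1 and Kdr) and none lower, summed to 164 to 324 CPM in mRNA and 150 to 285 CPM in RISC libraries, and both calls were lost in the 15-library fit; Cd34 was at 0 in every library. Kdr, at 1.95 ± 0.67, rested on RISC library 6 with 27.2 CPM and was 1.11 and not called without it; without any 1 of the 5 mRNA libraries it was 1.85 to 2.06 and not called either. Macrophage and leukocyte markers, with 7 of 16 lower and 3 higher, summed to 245 to 581 and 297 to 356 CPM (4 lower and none higher in the 15-library fit), and the complement gene C1qa differed by -2.63 ± 0.34. The 3 that were higher, the receptor genes Csf1r, Itgam and Ptprc, differed by 2.00 ± 0.43, 2.20 ± 0.60 and 2.37 ± 0.78, and these calls were lost in that fit; Ptprc also lost its call without 5 of the 9 libraries in turn (2.17 to 2.41). Aif1, of macrophages, was at 3.87 to 22.5 CPM in mRNA and at 0 in all RISC libraries. Duct markers, 4 of 6 lower and 1 higher, summed to 691 to 1065 and 364 to 408 CPM, with the keratins Krt18 and Krt8 at -2.68 ± 0.19 and -1.38 ± 0.20. Schwann cell and neural markers summed to 274 to 436 and 668 to 759 CPM, with 2 of 7 higher and 1 lower (1 higher in the 15-library fit); Ncam1, which endocrine islet cells also express, differed by 1.60 ± 0.18, and Gfap was at 0 in all RISC libraries. Acinar markers summed to 20.6 to 149 and 6.38 to 10.7 CPM, with 1 of 6 tested lower, Cpa1, and Pnlip and Prss2 at 0 in every library, and red blood cell markers to 3.39 to 13.0 and 0 to 3.42 CPM, with 1 of 2 lower, Hbb; in the 15-library fit 2 members of each list were lower. The part of these cells in the results above was not tested.

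The contrast was then set beside the same contrast in islet cells given the control mimic, which uses 6 other libraries. There, 606 of 10170 genes tested (5.96%) were higher and 2264 (22.3%) lower in RISC. Among 10055 genes tested in both, 586 were called higher in both, which is 25.2% of those higher in miR-17-5p cells and 96.7% of those higher in control cells. Lower in both were 824 genes, 36.4% and 37.7% of the 2 lists, and 20 genes were called in opposite directions. Log2 fold changes of the 2 contrasts correlated across genes with a Pearson coefficient of 0.578 and a Spearman coefficient of 0.706, given as a description. The median log2 fold change of all genes tested in control cells was -0.691. Cytosolic ribosomal proteins had 33 of 69 lower and none higher there, with a median of -4.74. For miR-17 family targets 4 of 44 were higher and 6 lower, with a median of 0.31. The other target lists had 4 of 18 higher and 0 lower (let-7), 4 of 15 and 2 (miR-375), 2 of 17 and 0 (miR-7), 2 of 17 and 1 (miR-29), and 2 of 15 and 0 (miR-200 and miR-141). Their medians in control cells, in the same order, were 1.749, 0.593, 0.440, 0.047 and 0.612. Neurod1 was higher by 2.52 and Ins1 lower by 5.12 on the log2 scale in control cells (adjusted p = 0.00365 for each).

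**Figure D5:**
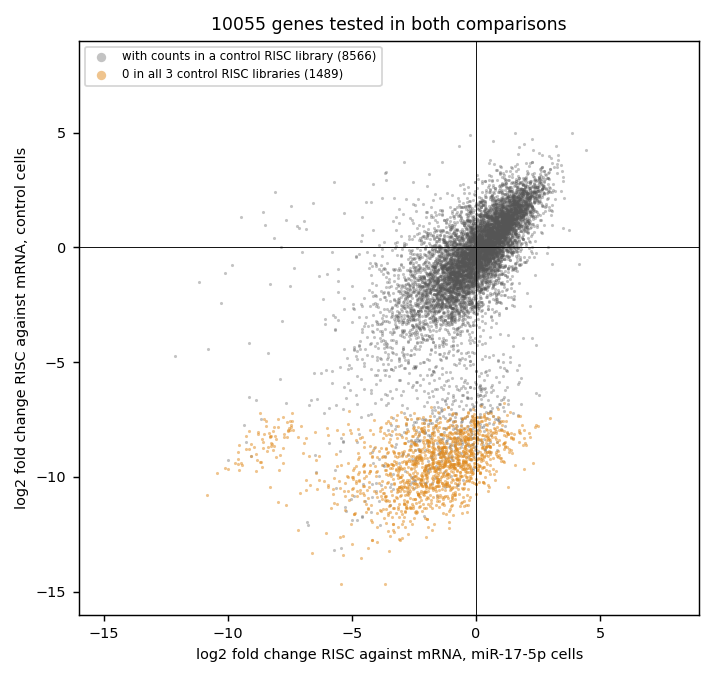
Log2 fold change of RISC against mRNA for 10055 genes in miR-17-5p cells (x axis) and in control cells (y axis); orange marks 1489 genes at 0 counts in all 3 control RISC libraries. The orange genes form a band below -7 on the y axis whose height depends on the prior count of the fit and is no measured fold.

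The difference of the 2 contrasts, tested over 15 libraries, gave 1488 of 11418 genes (13.0%) with a higher and 45 (0.394%) with a lower RISC-to-mRNA contrast in miR-17-5p than in control cells. Control RISC libraries held fewer genes, 5589 to 7424 with a count against 9040 to 10753 in miR-17-5p RISC libraries. Of the 1488 genes, 1023 (68.8%) were at 0 in all 3 control RISC libraries, against 22.03% of all genes tested, and 70 had counts in each of them. With limma-voom 0 genes passed in either direction (1144 higher and 167 lower at an unadjusted p under 0.05), and with DESeq2 1948 were higher and 262 lower. Without control RISC replicate 1 or 2 the count of higher genes was 2320 or 2765, and leaving out each library in turn gave 12 to 92 lower genes. Mif, a cytokine, was at 336 to 456 CPM in control and 324 to 460 CPM in miR-17-5p mRNA libraries, at 0 in all 3 control RISC libraries and at 40.6, 15.8, 25.5 and 22.4 CPM in miR-17-5p RISC libraries. Sil1, a chaperone cofactor, was also at 0 in those 3 libraries, and Rpl22, Hint1, Nudc and Rpl37 had at most 1 or 2 counts in any of them. Of the genes with a lower contrast, Atf4, a transcription factor of the stress response, had RISC values of 145 to 157 CPM in control and 61.3 to 84.5 CPM in miR-17-5p cells, with 160 to 207 and 166 to 180 CPM in miR-17-5p and control mRNA libraries (-1.07 ± 0.23, adjusted p = 0.00528). LOC100188932, Nos3, Rpl27, Rpl28 and Atp5g1 differed by -2.02 ± 0.34, -4.32 ± 0.91, -1.80 ± 0.38, -1.66 ± 0.35 and -2.37 ± 0.50. Nos3 had only 32, 3, 13 and 3 counts in miR-17-5p RISC libraries 2, 4, 5 and 6, so the size of its value is uncertain.

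Among 46 listed miR-17 family targets tested for this difference, 7 had a higher and none a lower contrast in miR-17-5p cells, 15.2% beside 13.0% of all genes. For the let-7, miR-375, miR-7, miR-29 and miR-200 lists 2 of 21, 2 of 15, 1 of 18, 1 of 18 and 0 of 15 had a higher contrast and none a lower one. None of the 7 calls was made with limma-voom. Besides, the E2f1 call was lost under all 3 other scalings, under both other filters and without 13 of the 15 libraries in turn, and the Rassf2 call without 11 of them. Epha4, Fbxo31, Kif23, Rassf2 and E2f1 were at 0 in all 3 control RISC libraries, so their fitted differences are no measured folds. Kif23, a kinesin of cell division, was at 22.7, 24.2, 14.3 and 15.6 CPM in miR-17-5p RISC libraries, with 9.79 to 20.4 CPM in miR-17-5p and 5.66 to 10.3 CPM in control mRNA libraries. Stat3 and Mfn2 had counts in every library. Stat3, a transcription factor of cytokine signalling, was at 251, 236 and 363 CPM in control and 407, 401, 413 and 453 CPM in miR-17-5p RISC libraries, and at 393 to 426 and 298 to 374 CPM in control and miR-17-5p mRNA libraries (0.82 ± 0.21, adjusted p = 0.0184). Mfn2, which fuses mitochondria, was at 62.8 to 117 and 128 to 175 CPM in control and miR-17-5p RISC libraries (1.05 ± 0.29, adjusted p = 0.0270). With DESeq2 size factors and with total counts neither call held (adjusted p of 0.0622 and 0.300 for Stat3 and of 0.0532 and 0.0632 for Mfn2), and the Mfn2 call was also lost without control mRNA replicate 1 or 3.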

How the data were processed

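Each library is 1 file of raw counts per gene that the authors deposited. The submitters' processing notes name TopHat2 2.0.10 and Bowtie2 for alignment, HTSeq for counting, the build rn5, and also DESeq and edgeR. Strand was not used, so overlapping antisense genes cannot be told apart, and near-identical copies can share or lose reads. Rows for reads on no gene were left out. Not-unique alignments were 27.4% to 31.2% (mean 29.8%) in RISC and 20.9% to 29.1% (mean 24.1%) in mRNA libraries. What this gap does to genes with near-identical copies was not tested. Ambiguous reads were 0.162% to 0.439% of the 9 libraries. Of 17055 genes, 14175 matched a symbol of the RefSeq table (GRCr8), which gave sequences only.

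Counts were tested with edgeR 4.0.16 (R 4.3.3; TMM scaling, filterByExpr, robust quasi-likelihood test, two-sided, Benjamini-Hochberg adjusted p under 0.05 over all genes tested). The 9 miR-17-5p libraries were fitted with group only, and the difference from control cells with all 15 libraries. Standard errors were derived from the F statistic, and CPM were counts per 1000000 after TMM scaling of the library totals, taken from the 15-library scaling in the comparison with control cells. Single values per library were compared by exact permutation (scipy 1.17.1). In simulated counts for RISC against mRNA (10871 genes), 11.3% of 97 genes changed 2-fold and 44.2% of 95 changed 4-fold were recovered, with 0% false calls. For the difference (11418 genes) 0% and 2.06% were recovered. Far fewer genes were changed in the simulations than were called in the data, 4727 and 1533 for the 2 comparisons. Apart from the changed genes, simulated counts were drawn from 1 mean per gene over all libraries of a comparison. The simulated libraries thus lacked the difference in content between the kinds, and genes at 0 in a whole group were not built in. For these reasons the rates, including the 0% of false calls, need not hold for the data.

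Members and gene lists were chosen with earlier results of these data known. Text names followed a rule: the 12 called genes of smallest p on each side, if their mean log2 CPM reached 4, then 4 called members per list or fewer, a fixed set of hormones and targets, the 6 most abundant genes within 0.25 of 0, the 4 most abundant genes at 0 in 1 kind of library, and for the difference the 6 of smallest p on each side under the same minimum level. Other members are named after their values were seen. Malat1, Dicer1 and protein length were not analysed here. A few genes that the rule names are not reported here. Alternatives were other scalings, filters and tools (DESeq2 1.42.0, limma 3.58.1), a replicate block, all 15 libraries in 1 fit, and each library left out in turn.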

Additional observations from a re-analysis of the deposited data

Results flagged for a closer look

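In 342 sets of 4 or 5 libraries, 25 (7.31%) had a library set apart from the others by Dixon's criterion, where chance gives about 5%. RISC replicate 6 stood apart with 42.6% of its counts on Rn45s (461571 CPM) and 58.3% on its 100 highest genes, against 26.6% to 28.2% and 44.7% to 46.5% in the other 3, and was lowest for Ythdf3 at 194 CPM. RISC replicate 2 was highest for Exoc5 at 45.7, Lats2 at 189, Rassf2 at 11.4 and Zfp280b at 136 CPM. RISC replicate 5 was highest for Cpa1 at 1.13, Hbb at 0.103, Rpl22l1 at 5.36 and Trip12 at 490 CPM and lowest for Atp5h at 11.5 CPM. The Hbb value is under the level of 3 counts.

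Among mRNA libraries, replicate 1 was highest for Ins1 at 296975, Pcsk1 at 468, Scg5 at 584 and St18 at 170 CPM, 4 genes of endocrine islet cells. Replicate 2 was highest for H19 at 524, Eif5a at 577, Mrpl12 at 68.9 and Psmd9 at 74.8 CPM and lowest for Mfn2 at 101 and Ccnd2 at 86.9 CPM. Replicate 4 was highest for Trip12 at 130 CPM and replicate 6 for Map3k2 at 17.9 CPM.

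The RISC-to-mRNA contrast of 27 of 173 genes named here differed between miR-17-5p and control cells in edgeR's test of the difference. Of all genes tested, 1533 of 11418 (13.4%) differed. Some of the 27, such as Mif and Atf4, were named for their small p in this same test. Their calls followed from that choice, so the count of 27 does not show that named genes differed more often than others. The contrast was higher in miR-17-5p cells, in log2 units, for the importin Kpnb1 (0.865), the SNARE ATPase Nsf (1.37), Mfn2 (1.05), Stat3 (0.816), Vim (2.29) and Col16a1 (1.82). Larger fitted values belonged to Mif (10.9), Fbxo31 (10.5), Sil1 (10.5), Kif23 (9.79), Epha4 (9.60), Rpl22 (9.54), Ndufa6 (8.16), Hint1 (8.06), Rassf2 (7.84), Nudc (7.66), Rpl37 (7.31), C1qa (7.15) and E2f1 (6.91). Genes at 0 or at a few counts in control RISC libraries have fitted values that depend on the prior count and are no measured folds. The contrast was lower in miR-17-5p cells for Atf4 (-1.07), St18 (-1.02), Rpl28 (-1.66), Rpl27 (-1.80), LOC100188932 (-2.02), Atp5g1 (-2.37), Nos3 (-4.32) and Chchd1 (-9.67). The value of Nos3 rests on 32, 3, 13 and 3 counts in the miR-17-5p RISC libraries. Chchd1 is at 0 in all miR-17-5p RISC libraries and had 445, 0 and 0 counts in control RISC libraries, so its value is no measured fold either, and without control RISC replicate 1 it was -0.38 and not called. The St18 call was lost without 8 of the 15 libraries in turn, and the calls of Kpnb1 and Nsf under 1 of 3 other scalings. With limma-voom none of the 27 was called.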

How the results depend on the processing

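Of 170 genes named with a value of RISC against mRNA, 131 kept their direction and their side of the threshold under every alternative tried, and 148 under all but the fit of all 15 libraries, which gave 1084 genes higher and 1375 lower in place of 2361 and 2366 and lost 26 of the named calls. Over the other alternatives the counts stayed within 1.5 times, and leaving out each library gave 2083 to 2532 higher and 1947 to 2846 lower. The share of the 100 highest genes differed by -9.51 to -4.90 percentage points with each library left out, at -9.51 without RISC replicate 6 (exact permutation p = 0.0357). The difference from control cells depended far more on the choice: the counts of genes higher and lower, 1488 and 45, became 0 and 0 with limma-voom and 30 and 0 with the replicate block (1540 and 74 at an unadjusted p under 0.05, edgeR). Lower genes numbered 68 with DESeq2 size factors, 74 with total counts, 29 without a filter, 16 at a mean of at least 50 counts and 262 with DESeq2, which left the adjusted p of 1093 genes undefined. Leaving out each library gave 1191 to 2765 higher and 12 to 92 lower, and the cause was not tested.

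Whether replicate numbers pair the libraries stayed undecided, because numbers in titles and descriptions differ and only 4 pairs could be formed. By the numbers of the titles, deviations of same-numbered libraries correlated at -0.017 to 0.062 (4 pairs) and those of other libraries at -0.049 to 0.027 (12 pairs). Of the 4 RISC libraries 2 correlated best with their own number. With the replicate block 1788 genes were higher and 1854 lower in RISC than in mRNA, and the 7 miR-17 family targets called for the difference had adjusted p of 0.0865 to 0.457 (edgeR).

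Signs turned for genes near 0. Acta2 was at 0.14 with total counts and 0.022 without Rn45s and insulin counts, Actg1 at 0.15 and 0.044, and Hspa5 at 0.13 and 0.042, at 0.084 with limma-voom, 0.019 with the replicate block and 0.13 with the 4 mRNA libraries that share a number with a RISC library. Leaving out each library gave -0.16 to 0.11 for Acta2, -0.089 to 0.041 for Actg1, -0.32 to 0.16 for Hspa5, -1.29 to 1.29 for Rassf2 and -7.11 to 0.061 for Rpl22l1. Rassf2, at 0.87 with all libraries, was at -0.37 with limma-voom and -1.28 with the replicate block, and its lowest value came without RISC replicate 2. Epha4 was called, at 2.07, without RISC replicate 6. Counting depth limits values under the level of 3 counts.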

Other observations

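Gene families that no list had singled out were grouped by the letters their symbols start with, a step chosen after the values were seen. Among 176 such families with at least 8 tested members, those named here were picked for their values and stand for no wider theme. Of 8 Tmed genes, cargo receptors between the endoplasmic reticulum and the Golgi, 6 were lower in RISC, none was higher, and their median log2 fold change was -1.32. Of 11 Timm genes, which import proteins into mitochondria, 7 were lower and none higher, with a median of -2.26, and of 9 Commd genes, which take part in endosomal sorting, 6 were lower and none higher, with a median of -2.19. Of 11 Lsm genes, small RNA-binding proteins of splicing and decay complexes, 6 were lower and none higher, with a median of -2.51.

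Other families had more members higher than lower. Of 43 Usp genes, deubiquitinating enzymes, 23 were higher and 3 lower, with a median of 0.86. Of 13 Klf genes, zinc finger transcription factors, 7 were higher and none lower, with a median of 1.42, and of 8 Sox and 8 Smad genes 5 each were higher and none lower, with medians of 1.28 and 1.11. Of 17 Dusp genes, phosphatases of MAP kinases, 8 were higher and none lower, with a median of 0.98, and of 11 Mtmr genes, lipid phosphatases of endosomes, 7 were higher and 1 lower, with a median of 1.09. Snx and Vps genes, of endosomal traffic, were near the shares of all genes: of 25 and 28 tested, 6 and 8 were higher and 4 and 7 lower. Of 16 Mapk and 21 Polr genes, kinases and RNA polymerase subunits, 4 and 1 were higher and 6 and 8 lower. These counts stand beside 21.7% higher and 21.8% lower of all genes tested, and families that share sequence can also share reads.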
